A study of Mus musculus with 24 samples.

Results

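Of the 55335 genes counted in cultured primary osteoblasts (OBs), 8 carbonic anhydrase genes are described here: *Car2*, *Car3*, *Car4*, *Car6*, *Car8*, *Car9*, *Car12* and *Car13*. They were taken by gene symbol from every count file, and the point of interest is *Car6* against its relatives. The family was chosen by the level of *Car6* in these same libraries: among the 160 genes with 50 or more counts on average that passed the edgeR test for Het against WT at days 14 and 21 and did not overlap between genotypes, its rise was of rank 2. That contrast, at either day, pooled, or set against day 8, is therefore given for the 8 genes as values with standard errors and with no test.

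The OBs came from parietal bones of wild type (WT) mouse pups in the first week after birth and of heterozygous (Het) pups in which 1 allele of *Col1a2*, the gene of the α2(I) chain of type I procollagen, carries a cysteine in place of a helical glycine. Both genotypes were kept in the same osteogenic medium with ascorbic acid 2-phosphate, and polyadenylated RNA was taken on days 8, 14 and 21 of culture, with 4 labelled replicates per genotype and day and 24 libraries in all. The study's methods count fewer wells per genotype and day than the labels count replicates, so it is not known whether each library came from a well of its own. Cells of several pups of 1 genotype had been pooled before plating, so libraries shared animals, and p-values cover the spread between libraries only. The mutation changes 1 codon in every cell, and counts per gene do not show it, so the genotype labels could not be checked on *Col1a2*. Fewer cells of a type and less RNA per cell cannot be told apart in bulk libraries.

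Totals per library ran from 17140202 to 59734231 counts. The 6 libraries of replicate 1 were the shallowest (17140202 to 25825762), and in the study's methods an earlier experiment was plated more densely and kept at atmospheric oxygen, while a later one was first expanded at low oxygen. The labels do not say which replicates belong to which experiment, so values of replicate 1 and of replicates 2 to 4 are given side by side where they differ. The OB marker *Col1a1* had at least 194288 counts in each library. Levels are relative quantities (RQ): each count was divided by the geometric mean of 4 reference genes of the same library (*Actg1*, *Actb*, *Mrfap1*, *Sdha*), and RQ is shown per 1000. The summed RQ of 7 OB markers exceeded that of 6 chondrocyte markers except in replicate 1 at day 8. There the chondrocyte sums were 34410 in WT and 33215 in Het, and the OB sums were 17430 and 18436.

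Carbonic anhydrases are zinc enzymes that interconvert carbon dioxide and bicarbonate with release of a proton. In bone they are known from the osteoclast, which acidifies the resorption pit with protons from CAR2, while mineral formation by OBs also releases protons that have to be carried off. CAR6 is the secreted member, known from saliva, and an intracellular form has been described that is induced under stress by the transcription factor CHOP. The cytosolic members are CAR2, CAR3 and CAR13, the membrane members CAR4, CAR9 and CAR12, and CAR8 lacks the zinc ligand needed for catalysis.

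*Car6* lies on the minus strand at chr4:150187015-150201332 (GRCm38), and *Car9* and *Car8* are on the same chromosome at chr4:43506966-43513729 and chr4:8143362-8239041. *Car13* (chr3:14641727-14663002), *Car3* (chr3:14863512-14872523) and *Car2* (chr3:14886273-14900770) sit close together, whereas *Car12* is at chr9:66713686-66766845 and *Car4* at chr11:84957786-84966044. GENCODE lists 4 transcripts of *Car6*, 2 of them protein coding, and counts per gene cannot tell the secreted form from another. Reads of *Car8* overlap 2 other annotated genes and those of *Car9* overlap 1 gene on the opposite strand. The strand rule of the counting is not given in the sources used here, so small shares of those counts may belong to the overlapping genes.

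RefSeq promoter windows (GRCm38.p6, from 250 bases before to 50 bases after the start) were given for 4 of the 8 genes, and they are shown because *Car6* and *Car9* differ in the days and genotypes in which they were high. Both strands were searched for GATGCAA, the core of the composite element bound by C/EBP and ATF factors such as CHOP and ATF4, and for ACGTG, the core of the hypoxia response element. GATGCAA was present in 2.53% of 32851 promoters and in none of the windows of *Car4*, *Car6*, *Car9* and *Car12*. ACGTG was present in 19.6% of all promoters and in 3 of these 4, with capitals marking the motif on either strand and 10 flanking bases on each side.
Car6, chr4:150201269-150201294, minus strand: ggaggtgaggCACGTGcacaggcacc
Car9, chr4:43506998-43507022, plus strand: atttccgatgCACGTacagcccgtc
Car4, chr11:84957746-84957770, plus strand: agccgactccCACGTctagccgtcc
Counted from the RefSeq start, the capitals begin 149 bases before it in *Car6*, 18 bases before it in *Car9* and at base 2 after it in *Car4*. The gene spans given above begin elsewhere. The stretches of *Car6* and *Car9* lie inside those spans, and that of *Car4* lies before its span. In *Car6* the motif reads the same on both strands and counts as 1 place. A match is only a description of these letters, and *Car4*, which has one, had no counts.

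*Car6* was nearly silent in WT at every day and in Het at day 8, and it was abundant in Het at days 14 and 21. In WT its RQ per 1000 in replicates 1 to 4 was 0.343, 0.183, 0.404 and 0.276 at day 8. It was 0.183, 0.244, 0.231 and 0.249 at day 14 and 0.378, 0.0817, 0.370 and 0.236 at day 21. These 12 values rest on 2 to 10 counts per library, close to the 3 counts that a count of 0 would still allow.

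In Het the RQ per 1000 of *Car6* was 0.285, 0.506, 0.478 and 0.323 at day 8, within or just above the range of WT. At day 14 it was 3.29, 22.3, 12.6 and 11.7, and at day 21 it was 5.25, 7.83, 9.41 and 7.28. The 8 Het libraries of the later days held 29 to 346 counts and lay above the other 16 without overlap. Replicate 1 was the lowest Het library on both later days.

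**Figure D1:**
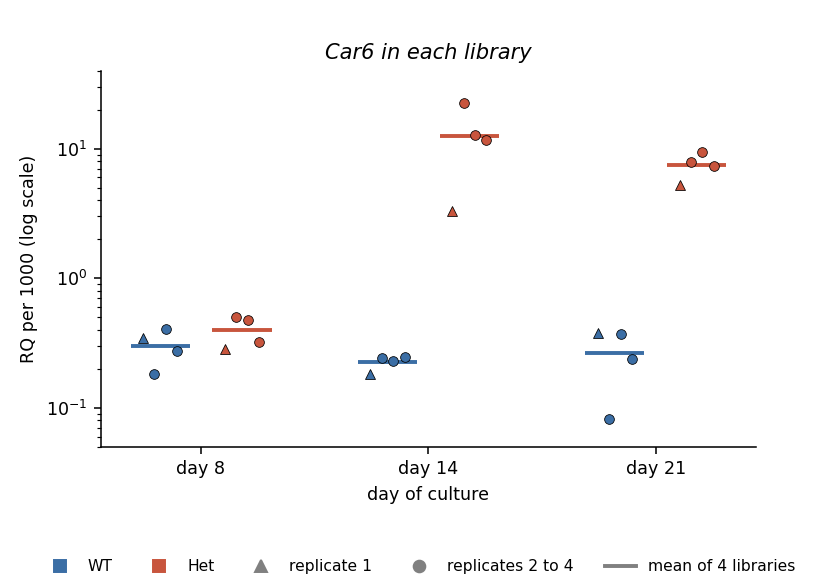
Car6 RQ per 1000 (log axis) in each of 24 libraries by day and genotype, with lines at the mean of 4 libraries. The 8 Het libraries of days 14 and 21 lie between 3.29 and 22.3, and the other 16 lie between 0.0817 and 0.506.

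Mean RQ per 1000 of *Car6* in Het was 12.5 ± 7.80 (SD, n = 4) at day 14 and 7.44 ± 1.72 at day 21, against 0.227 ± 0.0303 and 0.267 ± 0.139 in WT. The ratio of means was 55.1 at day 14 and 27.9 at day 21. Fitted on all 24 libraries, the log2 fold change was 5.72 ± 0.48 (SE) and 4.87 ± 0.47. Over both days, fitted on their 16 libraries, it was 5.32 ± 0.38. The summed counts of the later days were 1626 in Het and 40 in WT, a ratio after scaling of 42.9 with an exact 95% interval of 31.4 to 60.3 that covers counting error only. Of the 7 carbonic anhydrases tested there, only *Car6* did not overlap between genotypes at days 14 and 21, beside 0.922% of all genes tested, and as that contrast chose it nothing is read from this.

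The size of the difference varied with the replicate. Over both later days *Car6* was 15.2-fold higher in Het in replicate 1 and 50.4-fold higher in replicates 2 to 4. The WT libraries of these days held 2 to 7 counts each. Those of replicate 1 held 2 and 4, and no interval was computed for either ratio. The Het library with the highest RQ, replicate 2 at day 14, had 28159342 counts in total, fewer than any other library of replicates 2 to 4. Without it the fitted log2 fold change was 5.08.

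At day 8, in libraries that did not choose the gene, *Car6* was 1.32-fold higher in Het, from means of 0.398 ± 0.110 and 0.301 ± 0.0947 (SD, n = 4). It was higher in 3 of 4 same-numbered pairs, the ranges overlapped, and the exact two-sided permutation p was 0.229, where 4 libraries against 4 cannot go below 0.0286. The summed counts were 42 in Het and 27 in WT, a ratio of 1.42 with an interval of 0.854 to 2.39. *Car6* was too low for the edgeR test of all 8 libraries of day 8. It passed the filter of the fits that use later days only through the Het libraries of those days.

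As the libraries of days 14 and 21 chose the gene, its changes with maturation are values without a test. Within WT the log2 fold change of days 14 and 21 against day 8 was −0.29 ± 0.45 (SE), and the ratio of mean RQ was 0.819. Within Het the fitted change was 4.56 ± 0.42. From day 14 to day 21 the Het ratio was 1.6 in replicate 1 and 0.525 in replicates 2 to 4.

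Markers of macrophages also differed between the genotypes. In replicates 2 to 4 at day 8 the summed RQ per 1000 of 9 macrophage markers was 893, 1002 and 723 in Het. In WT it was 242, 228 and 278. At day 14 these replicates had 7013, 6403 and 6515 in Het and 1538, 1314 and 2235 in WT. Replicate 1 went the other way, with 386 in Het and 459 in WT at day 8 and 2911 and 4217 at day 14. At day 21 all 4 replicates had 7405 to 17234 in Het and 5584 to 6525 in WT. All 9 had counts in each library. Chondrocyte markers went the other way in most replicates: 6 of them, with *Col2a1* the most abundant and all 6 counted in each library, summed at day 14 to 1394, 1896 and 2540 in Het replicates 2 to 4 and to 6645, 6280 and 13229 in WT. In replicate 1 the sums were 23151 in Het and 22202 in WT. The part of either marker list in the *Car6* difference was not tested.

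Among the cytosolic members, *Car3*, which is best known from muscle and adipocytes and has low activity, was the most abundant carbonic anhydrase per kilobase and had the largest rise with maturation among the relatives of *Car6*. In WT its RQ per 1000 was 5.57, 18.3, 17.8 and 13.6 at day 8, then 145, 134, 141 and 136 at day 14 and 277, 154, 156 and 187 at day 21. In Het it was 5.41, 3.00, 3.64 and 4.13 at day 8, then 156, 67.5, 95.3 and 85.8 at day 14 and 233, 90.2, 96.3 and 78.4 at day 21. Every library of the later days exceeded every library of day 8, and 13.7% of all genes did not overlap there, in either direction. Replicate 1 was the highest library of both genotypes on both later days.

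The rise of *Car3* from day 8 to days 14 and 21 was 4.18 ± 0.26 on the log2 scale (SE, edgeR adjusted p = 1.5e-11), 3.54 within WT and 4.82 within Het. It was 37.0-fold in replicate 1 and 11.8-fold in replicates 2 to 4. Between days 14 and 21 the change of 0.39 ± 0.22 was not called (adjusted p = 0.254). Summed RQ per 1000 of 8 muscle markers was between 10.97 and 23.7 at day 8 and between 5.34 and 10.05 later. That of 7 adipocyte markers was between 1.42 and 18.4 throughout. Of the muscle markers *Acta1*, *Tnnt3* and *Mylpf* had counts in each library, with at most 230 in one, and *Ckm* was at 0 in 17. Of the adipocyte markers only *Fabp4* had counts in each library. The part of either cell type in the rise of *Car3* was not tested.

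At day 8 *Car3* was lower in every Het library than in any WT library, a ratio of 0.293 with an exact permutation p of 0.0286, the smallest this design allows, and 4.8% of all genes did not overlap there. The edgeR log2 fold change was −1.79 ± 0.36 (SE) and missed the threshold (adjusted p = 0.173). With the replicate number as a block it passed (adjusted p = 0.0498). The difference sat in replicates 2 to 4, where Het had 0.217 of the WT level, while replicate 1 had 0.970 of it and without replicate 1 the adjusted p was 4.79e-05. Chondrocyte markers, too, were lower in Het in replicates 2 to 4 at day 8 and not in replicate 1: their summed RQ per 1000 in replicates 1 to 4 was 33215, 5437, 6549 and 16783 in Het and 34410, 22307, 20313 and 25328 in WT. Their part in the *Car3* difference was not tested. At days 14 and 21 the log2 fold change was −0.55 ± 0.22, with 7 of 8 pairs lower in Het. The replicates differed here too. In replicates 2 to 4 RQ per 1000 of *Car3* was 67.5 to 96.3 in Het and 134 to 187 in WT. In replicate 1 it was 156 and 233 in Het and 145 and 277 in WT.

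*Car13*, also cytosolic, was the steadiest member. Its RQ per 1000 lay between 13.7 and 26.2 at day 8 and between 24.5 and 35.2 at days 14 and 21, in both genotypes. The rise from day 8 was 0.50 ± 0.09 on the log2 scale (SE, adjusted p = 3.53e-05), which fell to 0.20 when libraries were scaled by their totals. It was higher at day 21 than at day 14 in 8 of 8 pairs, by 0.16 ± 0.06 (adjusted p = 0.0903; exact permutation p = 0.0145). Het and WT differed by −0.01 ± 0.06 at days 14 and 21, less than the standard error.

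*Car2*, the enzyme of osteoclasts and red cells, was near the limit of detection in these cultures. No library held more than 15 counts, and 3 libraries had none. WT libraries held 0 to 7 counts at day 8, 3 to 15 at day 14 and 2 to 8 at day 21, and Het libraries held 1 to 4, 0 to 13 and 4 to 13. It was too low for a fit at day 8, where all 8 libraries together held 18 counts, so its fitted change to the later days, 1.76 ± 0.50 on the log2 scale (SE), is given without its edgeR test. Mean RQ was 3.63-fold higher in the later days by an exact permutation test that needs no filter (two-sided p = 0.000767, 24 libraries), and 3.45-fold within WT (p = 0.0242).

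Markers of the cells that use *Car2* were uneven. Summed over 9 osteoclast markers, RQ per 1000 was between 372 and 593 at day 8 and between 696 and 1157 later, most of it *Ctsk*, while the calcitonin receptor gene *Calcr* was at 0 in 20 libraries. Of 7 erythroid markers, the beta globin genes *Hbb-bs* and *Hbb-bt* were at 0 in all 24, *Hba-a1* in 6 and *Hba-a2* in 12, while *Alas2* had 4 to 25 counts in each library. Whether these cells gave the *Car2* counts was not tested.

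Among the membrane members, *Car9*, a hypoxia-induced transmembrane enzyme with its active site outside the cell, was the second most abundant per kilobase. In WT its RQ per 1000 was 19.5, 40.3, 34.1 and 30.6 at day 8, then 47.1, 78.2, 86.1 and 65.9 at day 14 and 62.6, 47.0, 64.5 and 53.2 at day 21. In Het it was 17.4, 34.5, 39.1 and 27.4 at day 8, then 22.3, 111, 142 and 113 at day 14 and 64.4, 95.4, 78.8 and 42.8 at day 21. Replicate 1 was the lowest library of each genotype at days 8 and 14.

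The rise of *Car9* from day 8 to the later days was 1.24 ± 0.24 on the log2 scale (SE, adjusted p = 0.000129), 1.00 within WT and 1.48 within Het, and the ratio was 2.66 in replicate 1 and 2.37 in replicates 2 to 4. Het against WT gave −0.07 ± 0.27 at day 8 (adjusted p = 0.970) and 0.40 ± 0.26 at days 14 and 21. In the later days the ratio was 0.791 in replicate 1 and 1.48 in replicates 2 to 4. Between days 14 and 21 the change of −0.38 ± 0.26 was not called (adjusted p = 0.354), and without replicate 1 it was −0.62 and was called (adjusted p = 0.00995).

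*Car12*, the other membrane enzyme with an outward active site, was the relative with the largest genotype difference in the later days, and it went the other way from *Car6*. In WT its RQ per 1000 was 26.5, 24.9, 21.8 and 21.7 at day 8, then 38.7, 36.7, 28.5 and 35.8 at day 14 and 111, 24.4, 36.2 and 60.3 at day 21. In Het it was 24.3, 14.2, 15.5 and 18.6 at day 8, then 9.97, 8.49, 16.6 and 15.3 at day 14 and 39.4, 16.7, 15.5 and 22.4 at day 21. Het was lower in 8 of 8 pairs of the later days, the groups were apart at day 14, as for 10.4% of all genes, and overlapped at day 21, and the log2 fold change over both days was −1.38 ± 0.28 (SE).

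From day 8 to the later days *Car12* changed by 0.43 ± 0.22 on the log2 scale over both genotypes (SE, adjusted p = 0.100) and was not called. Within WT the change was 0.92 ± 0.31 (adjusted p = 0.0204), where 45.0% of all genes were called and where the exact permutation p of mean RQ was 0.103, and within Het the change was −0.07 ± 0.30 (adjusted p = 0.891), where 45.4% were. The difference between these changes, −0.99 ± 0.43, contains the contrast that chose the family and was not tested. From day 14 to day 21 it changed by 0.79 ± 0.27 (adjusted p = 0.0546), and with the replicate number as a block by 0.63 (adjusted p = 0.0485). Of single libraries, that of WT replicate 1 at day 21, the highest of all 24, moved the value most, and without it the change was 0.55.

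*Car4*, which codes for an enzyme anchored to the membrane by a lipid, had no counts in any of the 24 libraries. A count of 0 still allows 3 counts, an RQ per 1000 of 0.0969 in the library with the lowest such limit and of 0.340 in the one with the highest.

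*Car8*, the catalytically inactive relative known from Purkinje cells of the cerebellum, had its highest mean at day 14 in both genotypes. In WT its RQ per 1000 was 2.66, 14.0, 13.9 and 10.03 at day 8, then 29.3, 25.6, 23.5 and 26.4 at day 14 and 18.6, 12.6, 14.4 and 14.1 at day 21. In Het it was 2.42, 4.96, 5.67 and 3.91 at day 8, then 18.1, 15.1, 23.2 and 17.01 at day 14 and 9.31, 12.5, 9.41 and 10.9 at day 21. Het lay below WT in every same-numbered pair at all 3 days, and the groups were apart at days 14 and 21, as for 10.4% and 11.7% of all genes. The nearest libraries were 23.2 and 23.5 at day 14 and 12.5 and 12.6 at day 21. When scaled by library totals, Het was the higher in replicate 3 at day 14 and in replicate 2 at day 21. With that scaling the groups overlapped on both days.

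From day 8 to the later days *Car8* rose by 1.32 ± 0.20 on the log2 scale (SE, adjusted p = 8.02e-06), 7.42-fold in replicate 1 and 1.95-fold in replicates 2 to 4. It then fell from day 14 to day 21 by 0.81 ± 0.10 (adjusted p = 0.000114), lower in 8 of 8 pairs. Within either genotype alone, with 4 libraries a day, the value was close to this but was not called (−0.81, adjusted p = 0.113 in WT; −0.80, adjusted p = 0.148 in Het). At day 8 Het against WT gave −1.26 ± 0.46 (adjusted p = 0.407; exact permutation p = 0.114), and with the replicate number as a block −1.22 (adjusted p = 0.0312). That difference was 0.383-fold in replicates 2 to 4 and 0.910-fold in replicate 1, the same split as in the chondrocyte markers given above, whose part here was not tested. At days 14 and 21 the log2 fold change was −0.50 ± 0.10.

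In the later days, where *Car3*, *Car8* and *Car12* had lower means in Het, OB markers had lower sums too, as had the chondrocyte markers in replicates 2 to 4. The summed RQ per 1000 of 7 OB markers was 95661 to 127062 in Het and 100917 to 181720 in WT at day 14, and 113618 to 149674 against 169144 to 186207 at day 21. Most of this sum was *Col1a1*, with a mean RQ per 1000 of 96256 over all libraries, beside 9262 for *Ibsp*, the next. The sum therefore speaks mainly for that gene. Their part in the lower values of these genes was not tested.

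**Figure D2:**
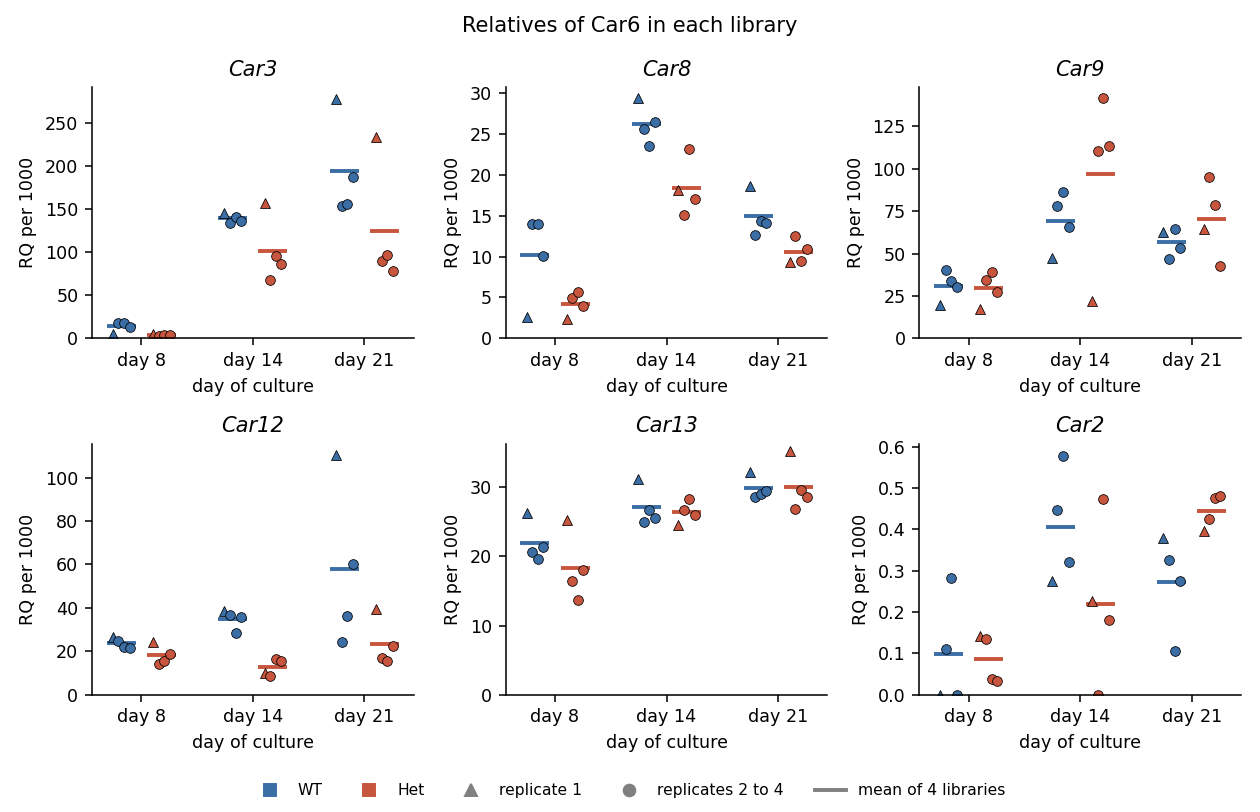
RQ per 1000 (linear axes from 0) of Car3, Car8, Car9, Car12, Car13 and Car2 in each of 24 libraries by day and genotype, with lines at the mean of 4 libraries. Car3 climbs from at most 18.3 at day 8 to at least 67.5 later, Car8 peaks at day 14, and Car12 is lower in Het at days 14 and 21.

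Read across the family, most of the relatives were higher in the later days. Of the 5 relatives that also passed the filter on low counts at day 8, 4 were higher at days 14 and 21 than at day 8 (*Car3*, *Car8*, *Car9* and *Car13*) and none was lower. Of all 18213 such genes, 41.1% were called higher and 19.5% lower. The median log2 fold change of the 5 was 1.24, against 0.13 for these genes. Scaling by library totals in place of the 4 reference genes shifted the median of all genes by −0.302, and the same 4 were called. Of all genes called, 8351 were higher and 3560 lower with the reference genes, and 4339 and 8805 with totals. From day 14 to day 21 only *Car8* of the 6 relatives tested was called, beside 19.3% of all 19839 genes.

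At day 8 no tested member differed between Het and WT by edgeR, among 5 tested, and 0.0% of 18222 genes were called. Unadjusted p fell below 0.05 for 3 of the 5 (*Car3*, *Car8* and *Car12*) and for 1817 of all genes. DESeq2 called *Car3* (adjusted p = 0.000606) and 454 of all genes. Without replicate 1, edgeR tested 6 members and called 4, all lower in Het (*Car3*, *Car8*, *Car12* and *Car13*, adjusted p = 4.79e-05, 0.000647, 0.0127 and 0.0409). Of all genes it called 3432. With the replicate number as a block or replicate 1 as a covariate it called 2.

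**Figure D3:**
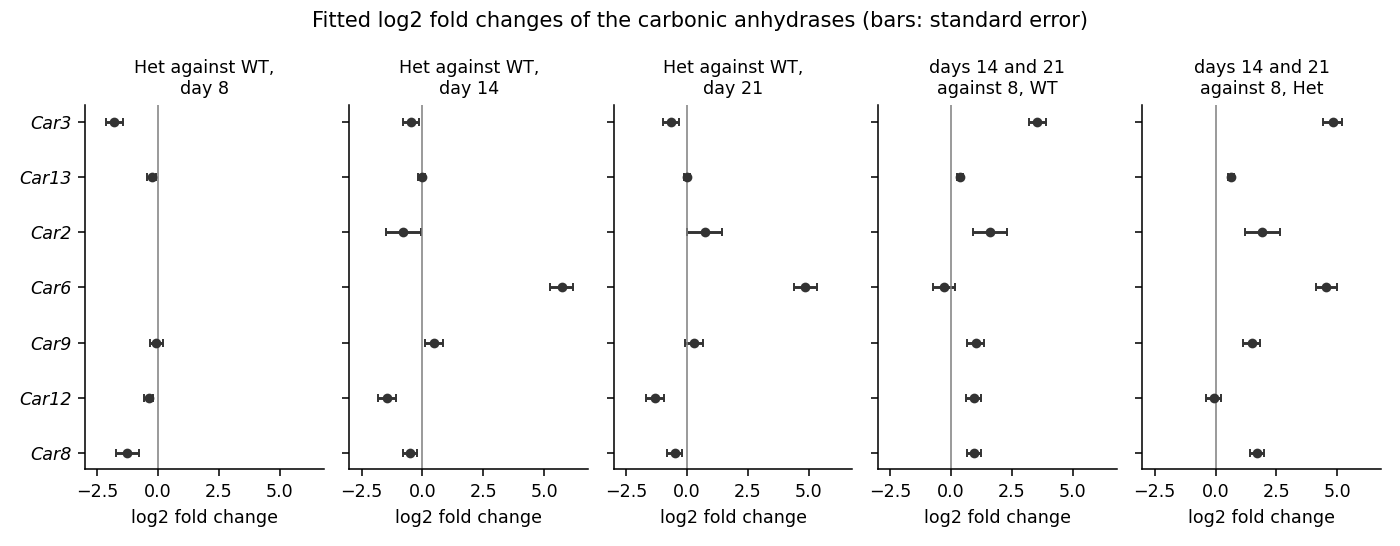
Fitted log2 fold changes (points) with standard errors (bars) of 7 carbonic anhydrases for Het against WT at each day and for days 14 and 21 against day 8 within each genotype. Car6 stands at 5.72 and 4.87 for Het at days 14 and 21 and at −0.29 for maturation in WT; Car2 and Car6 were too low at day 8 for a fit.

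The make-up of the family was compared per kilobase of exon, since longer genes gather more counts. Over all libraries *Car3* held 37.9% of the summed RQ per kilobase of 16 carbonic anhydrase genes, *Car9* 29.0% and *Car13* 12.6%. In WT the share of *Car6* went from 0.410% at day 8 to 0.114% later, ranks 11 and 13 of the family. In Het it went from 0.672% to 5.03%, ranks 10 and 4, above *Car8* with 3.44% and *Car12* with 2.18%. *Car9* was the leading member at day 8, with 33.4% in WT and 39.4% in Het, and *Car3* led later, with 48.6% and 36.1%.

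**Figure D4:**
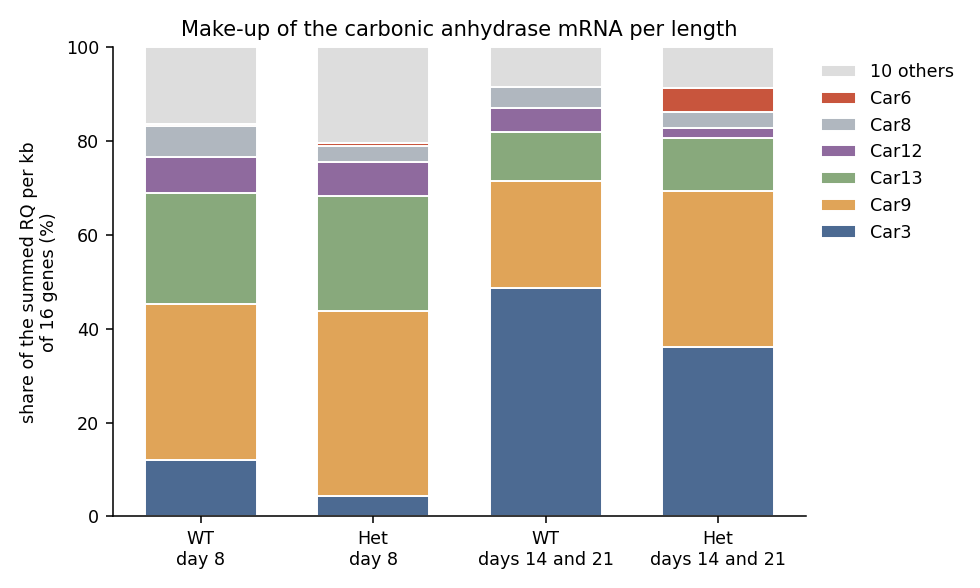
Share (%) of the summed RQ per kilobase of 16 carbonic anhydrase genes, from means of each genotype at day 8 and at days 14 and 21, with 10 less abundant genes as 1 segment. Car6 fills 5.03% of the Het bar of days 14 and 21 and 0.114% of the WT bar.

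The pattern of *Car6* was looked for in the other 8 carbonic anhydrase genes. None of the 6 tested was called for Het against WT at days 14 and 21 (edgeR), where 16.1% of all genes were, and none had an unadjusted p below 0.05. The largest value was 0.25 ± 0.22 (SE, adjusted p = 0.575) for *Car7*, a cytosolic enzyme at few counts. DESeq2, too, called none of them there.

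With maturation *Car11*, a secreted relative without catalytic activity, rose by 1.61 ± 0.13 on the log2 scale (SE, adjusted p = 5.84e-10) and rose again from day 14 to day 21 by 0.65 ± 0.12 (adjusted p = 0.00133), a call lost within Het alone. *Car14*, a transmembrane enzyme, rose by 0.50 ± 0.10 (adjusted p = 0.000156), a call that was lost with scaling by totals. *Car7* changed by 0.59 ± 0.17 (adjusted p = 0.0162), a call lost with each of the other 3 scalings, with DESeq2, without replicate 3 and at day 14 alone. Within Het its change was 1.07 ± 0.25 (adjusted p = 0.00474) and within WT 0.10 ± 0.24 (adjusted p = 0.767), and the difference of 0.97 ± 0.34 between them was not called (adjusted p = 0.872). *Car15* fell by 0.61 ± 0.18 (adjusted p = 0.00521), a call lost within Het and at day 14 alone. The mitochondrial *Car5b* rose from day 14 to day 21, by 0.48 ± 0.10 (adjusted p = 0.00241), a call lost within either genotype alone. *Car10* was not called, *Car1* had at most 12 counts in a library, and *Car5a* had 15 counts in all.

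Carbonic anhydrases work beside the carriers that move protons, bicarbonate and lactate across membranes, and 22 of 29 listed carriers were tested. For Het against WT at days 14 and 21, 1 was higher and 3 were lower, a called share near that of all genes. *Slc9a9*, a sodium-proton exchanger of endosomes, was higher by 0.61 ± 0.14 (SE, adjusted p = 0.0101). *Slc4a4*, a sodium-bicarbonate cotransporter, was lower, with a log2 fold change of −0.61 ± 0.08 (adjusted p = 0.000434). So was *Slc16a8*, a lactate carrier, at −0.75 ± 0.20 (adjusted p = 0.0222). None was called at day 8 by edgeR, where 0.0% of all genes were.

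With maturation 10 of these 22 carriers rose and 4 fell, with a median of 0.17 beside 0.16 for all genes, and with scaling by totals 6 rose and 11 fell, so no direction of the list is given. *Slc9a9* rose by 2.02 ± 0.12 (adjusted p = 6.23e-12) and *Slc16a8* by 1.81 ± 0.20 (adjusted p = 1.14e-07). *Slc4a8*, a sodium-driven bicarbonate exchanger, changed by −2.20 ± 0.26 (adjusted p = 2.96e-07). From day 14 to day 21, 4 rose and 1 fell, near the 19.3% of all genes called there: *Slc9a9* rose again by 1.03 ± 0.14 and *Slc4a10*, a bicarbonate carrier, by 1.03 ± 0.31, while *Slc16a1*, a lactate carrier, changed by −0.35 ± 0.10 (adjusted p = 0.000203, 0.0270 and 0.0235).

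Genes known to be induced by hypoxia were read beside *Car9* and *Car12*, which are such genes themselves but were not in the list. Of 20, 19 rose from day 8 to the later days and 1 fell, under all 4 scalings, where 40.9% of all 20434 genes were called higher and 17.4% lower. Their median was 1.52 with the reference genes, beside 0.16 for all genes, and 1.21 with totals. *Ankrd37* rose by 3.92 ± 0.38 (SE, adjusted p = 1.3e-08) and *Egln3*, a prolyl hydroxylase of the hypoxia-inducible factor, by 3.12 ± 0.47 (adjusted p = 6.63e-06), while *Adm*, the adrenomedullin gene, changed by −0.38 ± 0.12 (adjusted p = 0.0107). For Het against WT, edgeR with the reference genes called none at day 8, where it called 0.0% of all genes. It called none at days 14 and 21 either, where it called 16.1% of all genes. With each of the other 3 scalings 1 was called in the later days. From day 14 to day 21, *P4ha1*, a procollagen prolyl hydroxylase subunit, and *Hk2*, a hexokinase, changed by −0.49 ± 0.12 and −0.44 ± 0.14 (adjusted p = 0.0105 and 0.0418). These were the 2 of 20 called there, beside 19.3% of all genes.

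The genes most like *Car6* were sought among 14889 genes by the correlation of log2 RQ over 24 libraries. As *Car6* splits the libraries into the 8 Het libraries of the later days and the other 16, these values mostly reflect that split and are a description. The highest were *Cyb5r1*, a cytochrome b5 reductase (r = 0.971, Spearman's coefficient 0.866), *Hspa9*, the mitochondrial HSP70 (r = 0.924), *Gsto1*, a glutathione transferase (0.888), *Arhgef2*, a guanine nucleotide exchange factor (0.877), and *Got1*, an aspartate aminotransferase (0.873). Within the 8 Het libraries of days 14 and 21 alone, r was 0.919 for *Cyb5r1* and 0.953 for *Hspa9*. Replicate 1 was the lowest Het library in *Car6* and *Cyb5r1* on both of these days, and in *Hspa9* at day 14.

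*Ddit3*, which codes for CHOP, ranked 11 (r = 0.850) and *Trib3*, a target of ATF4 and CHOP, ranked 12 (r = 0.847). *Asns*, *Atf5*, *Chac1* and *Atf4* ranked 200, 323, 726 and 1128. In Het against WT at days 14 and 21, *Ddit3* was higher by 1.20 ± 0.10 and *Trib3* by 2.78 ± 0.14 on the log2 scale (SE, edgeR adjusted p = 3.21e-06 and 3.27e-08). *Chac1*, *Atf5*, *Asns* and *Atf4* were higher by 0.79 ± 0.10, 0.69 ± 0.08, 0.67 ± 0.11 and 0.26 ± 0.08. These stress genes were listed with earlier results of these data known, so the p-values are not an independent test. In WT, where *Car6* stayed at 0.0817 to 0.404, the RQ per 1000 of *Ddit3* was 21.0 to 26.6 at day 8 and 36.1 to 43.7 later, and that of *Trib3* was 4.13 to 7.55 and 23.4 to 31.8.

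None of the relatives ranked near *Car6*. *Car9* had r = 0.506 (rank 1474), *Car13* 0.270, *Car3* 0.241, *Car8* 0.107 and *Car12* −0.525. Within the 8 Het libraries of the later days, r with *Car6* was 0.830 for *Car9* and −0.751 for *Car3*, and in these 8 the libraries of replicate 1 were lowest in *Car6* and highest in *Car3*. *Eno1*, a glycolytic gene 35389 bases from *Car6* that was chosen after its values were seen, differed between Het and WT by 0.05 ± 0.09 at days 14 and 21 (SE, adjusted p = 0.790).

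**Figure D5:**
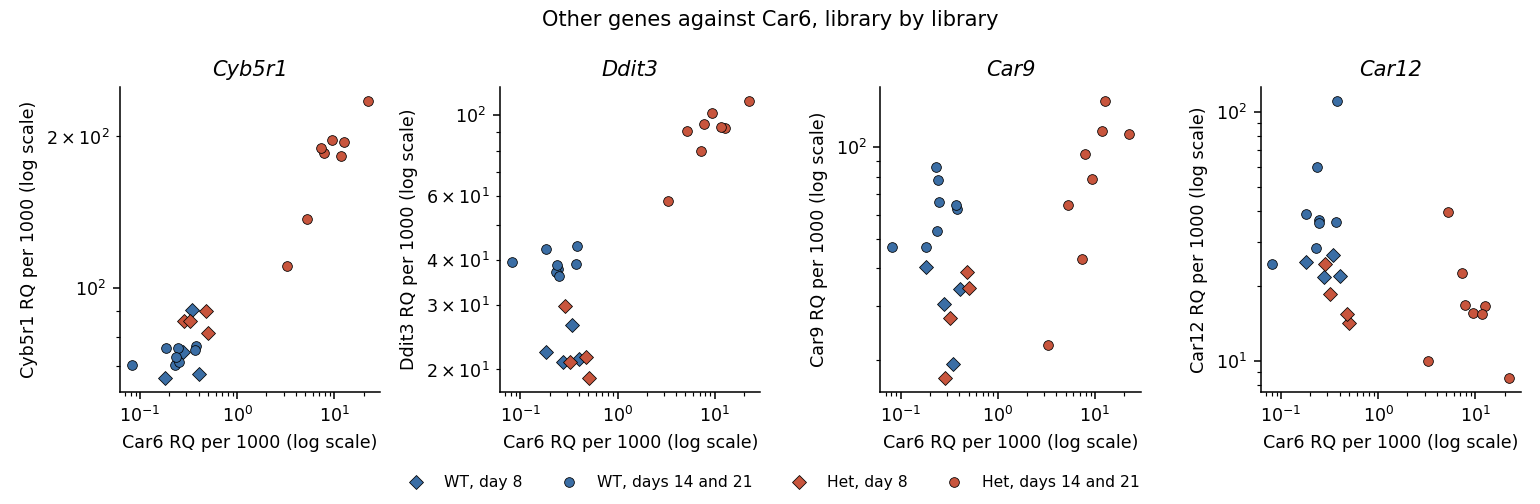
RQ per 1000 of Cyb5r1, Ddit3, Car9 and Car12 against that of Car6 (log axes), 1 point per library, 24 in each panel. The 8 Het libraries of days 14 and 21 form a group of their own in Car6; Cyb5r1 (r = 0.971) and Ddit3 (r = 0.850) rise with it, and Car12 (r = −0.525) does not.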

How the data were processed

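Polyadenylated RNA was sequenced in 24 Illumina libraries. The deposited values are raw counts of reads per gene, 1 file per library, not normalized, which the authors obtained, by the submitters' processing notes, with cutadapt 2.5, STAR 2.73a and featureCounts 1.6.4 of Subread on mm10. Strand rule, treatment of reads that match several genes and annotation are not given in the sources used here. No molecular identifiers were used, so intervals and limits cover counting error only.

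Identifiers with the same version were found in GENCODE M21 (GRCm38) for 54587 of 55335 genes and for all 16 carbonic anhydrases, whose deposited lengths equal the exon lengths there. Groups came from the labels. Counts were tested in R 4.3.3 with edgeR 4.0.16 (glmQLFit, glmQLFTest), scaled by the 4 reference genes, after filterByExpr, with p-values adjusted over all genes by Benjamini-Hochberg and called at 0.05. The standard error is the log2 fold change over the root of F. Permutation tests of mean RQ were exact and two-sided (numpy 2.4.6), of 7 genes at day 8. The exact intervals of summed counts were computed with scipy 1.17.1. Log2 RQ used 0.5 added counts. The edgeR fits were first run on simulated counts, and the permutation test on simulated normal values.

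Members and lists were chosen with earlier results of these data known. The genes named are the carbonic anhydrases, the reference genes, the 5 genes most like *Car6* and 6 stress genes read beside them, cell type markers, and for each comparison and carrier or hypoxia list the 2 largest rises and falls with an adjusted p under 0.05 and a mean of at least 50 counts, of which 1 carrier is not reported here. *Car6* is given no p for any change that uses libraries of days 14 and 21, and *Car2* no edgeR p against day 8, both stricter than first planned, and a planned comparison of protein sequences was not made.

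Replicate numbers were taken to pair the libraries, because deviations from the group means of same-numbered WT and Het libraries correlated in all 12 pairs (0.194 to 0.789, median 0.371, over 20434 genes), each above the 0.1 set as the rule. Replicate 1 stood apart: among replicates 2 to 4, 18 pairs with different numbers had a median of 0.303, beside 0.353 for 9 pairs with the same number, and 18 pairs of replicate 1 with another had −0.460. The different-numbered pairs of replicates 2 to 4 ran from 0.0745 to 0.436, so the rule does not show a pairing by number among them. Counts of same-numbered pairs and the replicate block assume such a pairing. No 2 replicates agreed within sampling noise (lowest chi-square per degree of freedom 4.78 in 36 pairs). The alternatives were other scalings, DESeq2 1.42.0, other filters on low counts, the replicate number or replicate 1 as a covariate, single days or genotypes, and libraries or replicate numbers left out.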

Additional observations from a re-analysis of the deposited data

Results flagged for a closer look

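*Car3* in Het at day 21 had 1 library far from the rest: replicate 1 had an RQ per 1000 of 233, while the other 3 lay between 78.4 and 96.3. The gap took 0.884 of the range of the 4 libraries, above the critical value of Dixon's test at the 95% level. It was the only such case among 42 groups of 4 examined, and chance gives about 1 in 20.

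*Car2* moved in opposite directions at the later days. Its ratio of Het to WT was 0.544 at day 14, lower in 4 of 4 pairs, and 1.64 at day 21, higher in 4 of 4 pairs, from at most 15 counts per library, and the difference between the days was not tested.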

How the results depend on the processing

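The values of *Car3*, *Car6*, *Car8* and *Car12* for Het against WT at days 14 and 21, for the later days against day 8 and for day 21 against day 14, each over both days or both genotypes, kept their direction under all 4 scalings, as did those of *Car3*, *Car8* and *Car12* at day 8. With totals *Car5b* changed by −0.24 from day 8 to the later days in place of 0.05. With the reference genes, *Car6* changed by −0.29 from day 8 to the later days in WT alone. Counts of genes called moved more. Het against WT at days 14 and 21 gave 3202 genes, 5099 with DESeq2, 5057 with replicate 1 as a covariate, 704 at day 14 and 186 at day 21, and 139 to 7582 with a replicate number left out (lowest without replicate 4, highest without replicate 1; 2118 to 4869 with 1 library left out). With the reference genes 1440 were higher and 1762 lower, with TMM 2463 and 1485. At day 8 the 0 calls became 454 with DESeq2, 285 with the replicate block, 704 with the covariate, 3432 without replicate 1 and 1610 without its Het library. The difference between the stages gave 35, with DESeq2 95, with the replicate block 67, with the covariate 73, and 0 to 928 or 10 to 97 with a replicate number or 1 library left out. Days 14 and 21 against day 8 gave 9559 to 13775. Day 21 against day 14 gave 3824 (2646 higher; with TMM 2259 of 4415), 1726 in WT, 968 in Het, 1697 to 5573 without a replicate number and 3098 to 4213 without 1 library. Members called there, *Car6* not counted, numbered 1, with DESeq2 or the replicate block 2, with the covariate 3, and 1 to 2 with a replicate number or 1 library left out. Of the 5 genes most like *Car6*, 2 were among the 5 highest by rank correlation and 3 in replicates 2 to 4 alone. The replicate block changed no member's call other than those given for *Car3*, *Car8* and *Car12*. The cause of these shifts was not tested. Depth limits *Car2* and the *Car6* of WT, at 0 to 15 counts.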
